A study of Mus musculus with 2 samples.

Results

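The genes described here carry proteins into the endoplasmic reticulum and on to the Golgi. They were chosen by symbol: every gene whose name starts with Sec61, Sec62, Sec63, Sec11, Sec13, Sec22, Sec23, Sec24, Sec31, Ssr, Spcs, Tmed, Kdelr or Pdia, or with Cop followed by a, b, e, g or z, and that had at least 10 UMIs (unique molecular identifiers, one per captured probe pair) over both sections. Of 50 symbols with these letters, 49 passed the limit, out of 19465 genes in the files and 16680 with at least 10 UMIs. One of the 49, *Ssrp1*, is a chromatin protein caught by its letters only, so 48 members were summed and described. No symbol starting with Sec13 or Cope was in the files, so the complexes named below are covered in part. *Sec23ip* was counted with the COPII coat because of its letters. The study made a femoral defect in female bone cell reporter mice, which carry eGFP at *Ibsp* and mCherry at *Acp5*, at 12 weeks of age, and took mice whose defects had bridged 3 weeks later. From then until week 5 the Loaded mouse received cyclic loading of the femur 3 times per week and the Control mouse received sham-loading. Both were 17 weeks old at the end. Spatial expression was measured on 1 decalcified, paraffin-embedded section of 1 femur per group, so section, mouse and treatment cannot be told apart and no difference between the sections could be tested.

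Secreted and membrane proteins enter the endoplasmic reticulum through the Sec61 translocon, lose their signal sequence to the signal peptidase and fold with the help of chaperones and disulfide isomerases. COPII-coated carriers take them to the Golgi, and COPI-coated carriers return escaped residents, which the KDEL receptors recognise by their last residues. Osteoblasts, which lay down type I collagen, and plasma cells, which secrete antibody, are both known for an extensive endoplasmic reticulum.

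Bone spots were those the study listed by barcode as bone between the inner fixation pins, 131 in the Control and 146 in the Loaded section. All other spots with at least 500 UMIs and 250 genes were the comparison, 1767 and 1285 spots. A spot covers several cells, so a lower level can mean fewer cells of a type or less RNA per cell, which cannot be told apart here. Bone spots held 557259 UMIs in the Control and 409020 in the Loaded section, and the other spots 8426953 and 4499787. A level is the summed UMIs divided by the summed size factors, that is, UMIs in a spot of average size factor, and probes of different genes capture unequally, so levels are compared within a gene or group only. Intervals are exact 95% conditional binomial intervals of a ratio and cover counting error only. Each section was also divided into 4 blocks by the position of its spots, as a measure of spread within the section. In the Loaded section blocks 2 and 3 each held bone spots from both sides of the shaft, so a block does not stand for a single side. The bone label was checked against *Col1a1* and *Col1a2*, the chains of type I collagen, which together were higher in bone than in all other spots by 0.87 on the log2 scale in the Control and 2.36 in the Loaded section. The bone blocks overlapped the other blocks in both sections. In the Control section their level was 61.5 in bone but 80.5 in other spots where muscle genes took under 10% of UMIs. The Loaded levels were 193 and 57.9. In Control other spots where muscle genes took at least 10% of UMIs the level was 17.6. The Control label thus held for collagen against all other spots together and against these, but not against those under 10%. Muscle genes made up 16.2% of UMIs in Control bone spots and 8.42% in Loaded bone spots, against 29.4% and 18.5% in the other spots.

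Summed over the 48 members, bone spots did not stand above the other spots of the Control section but did in the Loaded section. In the Control section the level was 14.3 in bone (2475 UMIs) and 14.6 elsewhere (26197 UMIs), a log2 ratio of −0.04 (−0.10 to 0.02), and the bone blocks overlapped the other blocks. In the Loaded section the level was 22.4 in bone (2893 UMIs) and 15.6 elsewhere (19303 UMIs), a log2 ratio of +0.52 (0.47 to 0.58). All 4 Loaded bone blocks, between 18.2 and 23.0, lay above the 4 blocks of other spots, between 13.3 and 17.0.

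These ratios moved with the tissue chosen for comparison and with the scaling. Against other spots in which muscle genes took at least 10% of UMIs, the ratio was 0.19 in the Control and 0.93 in the Loaded section. Against other spots below 10%, it was −0.55 and 0.06. When both regions were limited to spots where muscle genes took under 5%, it was −0.30 and 0.15. Scaled by library totals, the Control ratio became 0.51 and the Loaded ratio 0.72, while the median of all genes moved as well, from −0.03 to 0.52 and from 0.09 to 0.29. The muscle-poor other spots were rich in members and in marrow genes: members were 0.653% of their UMIs in the Control and 0.672% in the Loaded section, and erythroid genes 7.48% and 7.92%. They also held bone cell genes. The osteoblast and osteocyte list was at 6.85 in them and 6.08 in bone in the Control section, and the osteoclast list at 13.8 and 12.3. In the Loaded section these were 7.26 and 23.9, and 10.3 and 15.3. Bone beyond the inner pins, where present, counts among the other spots.

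Counted one by one, members with at least 10 UMIs and a log2 ratio past 0.5 were below the background share in both directions in the Control section. In the Loaded section they were above it for higher and below it for lower members. The shares of all genes, here and below, were not matched to the UMIs of the members. Genes with few UMIs pass 0.5 more readily through counting error, so a share below background was not read as a result about the members. In the Control section 10 of 47 members were higher in bone, where 26% of all genes were, and 8 were lower, where 26.2% were. Their median was −0.07, against −0.03 over all genes. At 50 UMIs, a limit that 45 members passed, it was −0.08 against −0.17, so the order of the 2 medians depended on the limit. In the Loaded section the median was 0.42 against 0.09, and 0.46 against 0.02 at 50 UMIs. There 19 of 46 members were higher (27.6% of all genes) and 3 lower (20.1%). With library totals these splits were 23 higher (50.8% of all genes) and 2 lower (8.63%) in the Control and 26 higher (37.7%) and 2 lower (14%) in the Loaded section. Against muscle-poor other spots they were 7 higher (16.3% of all genes) and 8 lower (36.9%) in the Control and 15 higher (17.1%) and 3 lower (24.3%) in the Loaded section. Against muscle-rich other spots they were 15 higher (32.5%) and 9 lower (28.4%), and 25 higher (35.2%) and 3 lower (23.7%).

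The blocks separated few members. In the Loaded section 7 members had every bone block above every other block (2.82% of all genes) and 0 had every bone block below (5.39%). The 7 were *Kdelr2*, *Pdia3*, *Pdia4*, *Sec22b*, *Spcs3*, *Ssr1* and *Tmed3*. In the Control section 1 member, *Sec22c*, had all bone blocks above (0.599% of all genes), and 2, *Sec22a* and *Sec31b*, had all below (3.73%).

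**Figure D1:**
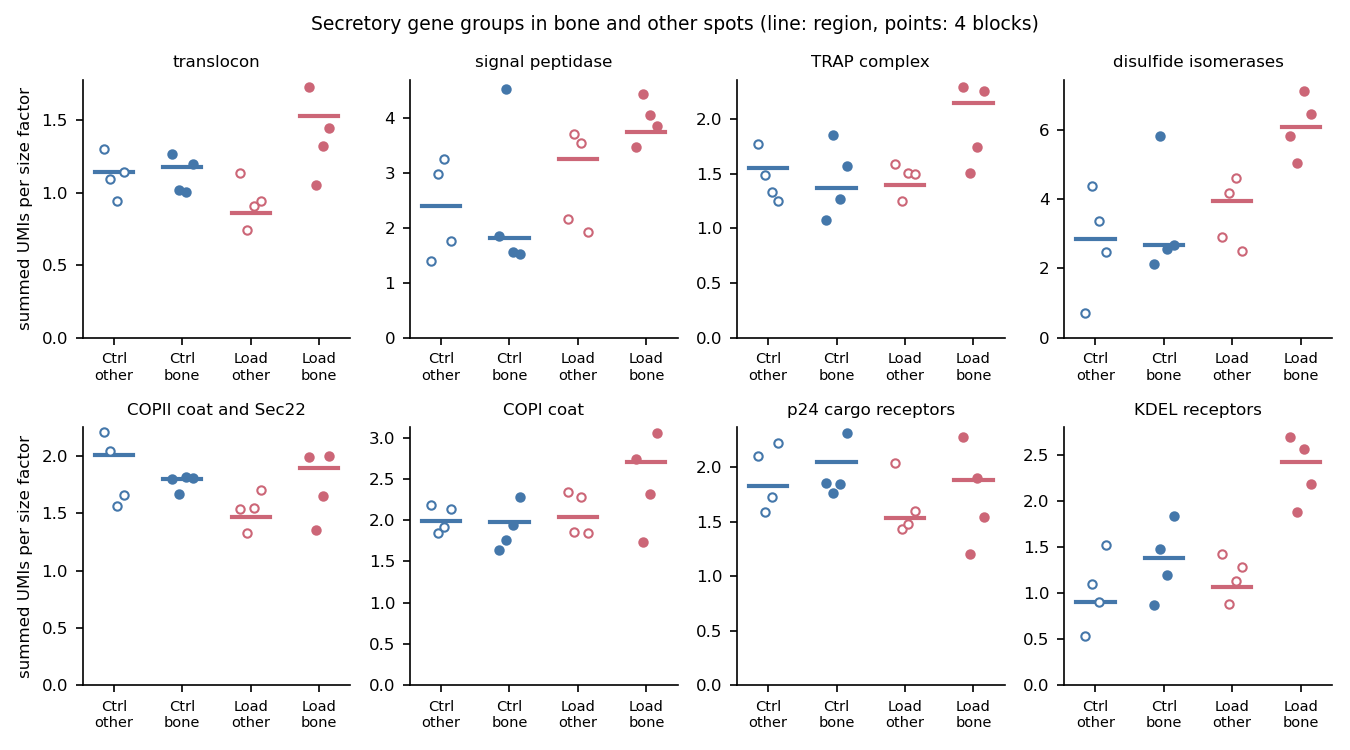
Level (summed UMIs per size factor, vertical axis) of 8 groups of secretory genes in other and bone spots of the Control (blue) and Loaded (red) section, with a line for the whole region and a point for each of 4 blocks (open for other spots, filled for bone). Loaded bone blocks stand above Loaded other blocks for the disulfide isomerases and the KDEL receptors, and block 2 of Control bone stands apart for the signal peptidase at 4.54 and the disulfide isomerases at 5.84.

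At the entry to the endoplasmic reticulum, the translocon genes (*Sec61*, *Sec62* and *Sec63*) were at 1.18 in bone and 1.15 elsewhere in the Control section and at 1.53 and 0.863 in the Loaded section, log2 ratios of 0.04 (−0.18 to 0.24) and +0.82 (0.60 to 1.04). *Sec61b*, the small β subunit of the channel, had the highest ratio of the group in the Loaded section. Its level was 0.369 in bone and 0.365 elsewhere in the Control section, and 0.480 and 0.183 in the Loaded section, a log2 ratio of +1.40 (0.97 to 1.81). The level outside bone was thus lower in the Loaded than in the Control section, which enters this ratio. *Sec62*, which helps certain proteins in after their synthesis, had the most UMIs of the group and a ratio of −0.11 in the Control and +0.66 in the Loaded section.

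The TRAP complex (*Ssr1* to *Ssr4*), which sits beside the translocon, had ratios of −0.17 (−0.37 to 0.02) and +0.62 (0.43 to 0.80). *Ssr3*, its member with the most UMIs, was at 0.611 in bone and 0.682 elsewhere in the Control section, and at 0.790 and 0.477 in the Loaded section. *Ssr1* was at 0.236 and 0.256 in the Control section and at 0.504 and 0.262 in the Loaded section, where the bone blocks did not overlap the others.

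The signal peptidase genes, which encode the enzyme that removes signal sequences, had ratios of opposite sign, −0.39 (−0.56 to −0.23) in the Control and +0.20 (0.07 to 0.34) in the Loaded section. Leaving out single blocks gave −0.68 to −0.08 in the Control section. The opposite signs held against all other spots together: against muscle-poor spots both ratios were negative, −1.34 in the Control and −0.53 in the Loaded section, and against muscle-rich spots both were positive, 0.17 and 0.99. *Sec11c*, a catalytic subunit, was at 0.703 in Control bone and 1.13 elsewhere, a ratio of −0.68 (−0.96 to −0.42), and at 1.71 and 1.85 in the Loaded section. *Spcs3*, a non-catalytic subunit, was at 0.611 and 0.617 in the Control and at 1.15 and 0.718 in the Loaded section. Within the other spots these genes differed by tissue: *Sec11c* was at 2.79 in muscle-poor and 0.552 in muscle-rich Control spots, and at 3.53 and 0.777 in Loaded spots. Granulocyte genes were 0.261% of UMIs in the muscle-poor Control spots and 0.0238% in the muscle-rich ones, and their part in the *Sec11c* level was not tested.

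*Pdia3*, a disulfide isomerase that folds glycoproteins, held 10611 of the 50977 member UMIs over both sections, 20.8%. It followed the same tissues as *Sec11c*. Its level was 6.56 in muscle-poor and 1.35 in muscle-rich other spots of the Control section, and 6.64 and 1.89 in the Loaded section. Control bone, at 2.41, lay towards the lower of these, and Loaded bone, at 5.59, towards the higher. Against all other spots the log2 ratio was −0.16 (−0.30 to −0.01) in the Control section, which became −0.65 without the first and 0.68 without the second block of other spots, and +0.58 (0.47 to 0.69) in the Loaded section. Against muscle-poor spots alone the ratios were −1.44 and −0.25, and against muscle-rich spots 0.84 and 1.56. *Pdia4*, a larger isomerase of the same compartment, was higher in bone in both sections, by 1.00 (0.46 to 1.52) in the Control and 1.48 (1.03 to 1.90) in the Loaded section, on 37 and 58 UMIs in bone.

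**Figure D2:**
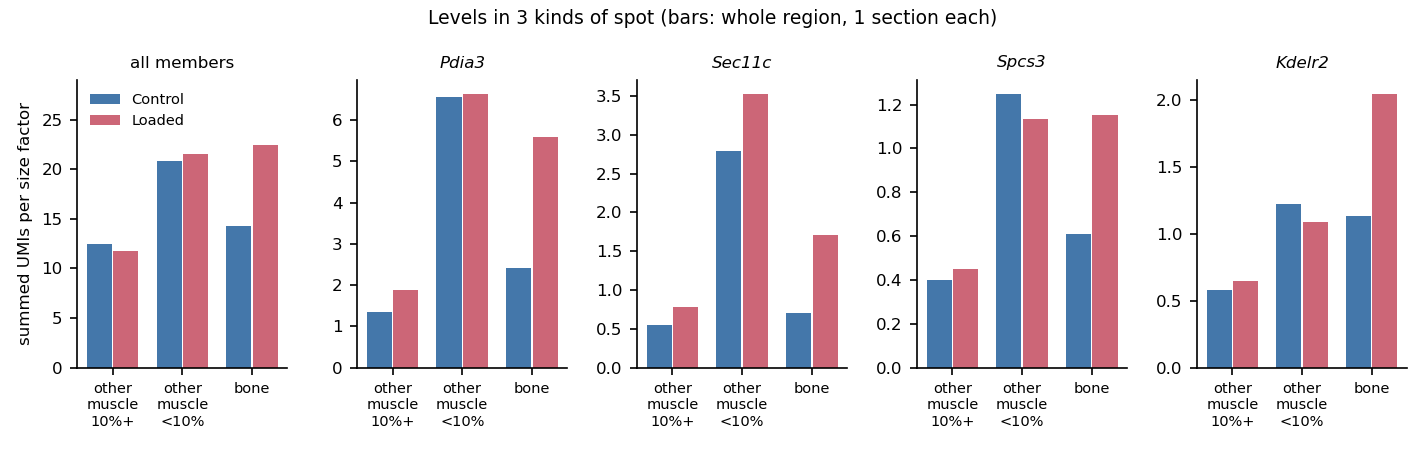
Level (summed UMIs per size factor, vertical axes, from 0) of all members and of 4 single members in other spots with a muscle share of at least 10%, other spots below 10%, and bone spots, as 1 bar per section (Control blue, Loaded red). *Pdia3* and *Sec11c* stand highest in muscle-poor other spots, while *Kdelr2* stands highest in Loaded bone at 2.05.

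Along the route to the Golgi, the COPII coat genes with the *Sec22* SNAREs had ratios of −0.16 (−0.33 to 0.01) in the Control and +0.37 (0.17 to 0.56) in the Loaded section. Their level was 1.80 in bone and 2.01 elsewhere in the Control section, and 1.90 and 1.47 in the Loaded section. The lower level outside Loaded bone thus enters the second ratio. The COPI coat genes had ratios of −0.00 (−0.17 to 0.16) and +0.40 (0.24 to 0.57). *Sec23a*, an inner COPII coat subunit needed for collagen export, was at 0.190 in Control bone and 0.346 elsewhere, a ratio of −0.86 (−1.41 to −0.36), but at +0.83 against muscle-poor spots alone. In the Loaded section its ratio was 0.05 (−0.57 to 0.62). *Copg1*, a COPI subunit, was at 0.363 and 0.354 in the Control and at 0.612 and 0.303 in the Loaded section, a ratio of +1.01 (0.65 to 1.37). *Copb2* had a ratio of +0.82 (0.35 to 1.27) in the Control section and +0.48 (−0.14 to 1.04) in the Loaded section. The p24 cargo receptors (*Tmed* genes) had ratios of 0.16 (0.00 to 0.32) and 0.29 (0.10 to 0.49).

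The KDEL receptors were the group with the highest ratio in both sections, +0.62 (0.42 to 0.82) in the Control and +1.18 (1.00 to 1.36) in the Loaded section. Without the fourth bone block, which held more collagen than the others, the Control ratio was 0.21, and without the second block of other spots 0.91. *Kdelr2*, which supplied most of their UMIs, was at 1.14 in Control bone and 0.745 elsewhere, and at 2.05 and 0.818 in the Loaded section. The 4 Loaded bone blocks of *Kdelr2*, from 1.43 to 2.32, lay above the other blocks, from 0.663 to 1.13, while the Control blocks overlapped. Against muscle-poor other spots the group's ratio was −0.08 in the Control and +0.80 in the Loaded section. *Kdelr3* had a ratio of +1.27 (0.47 to 2.01) in the Control section on 19 bone UMIs and +0.79 (−0.11 to 1.60) in the Loaded section on 15. *Sec22c* (+1.42, 0.42 to 2.32, Control) rested on 13 bone UMIs, and *Sec22a* (−1.26, −3.57 to 0.34) and *Sec31b* (−1.24, −3.55 to 0.36) on 3 each. *Tmed4* (−1.31, −2.54 to −0.30, on 8 bone UMIs), *Copg2* (−1.21, −3.12 to 0.19, on 4), *Pdia5* (−0.30, −1.97 to 1.00, on 5) and *Tmed8* (−0.13, −1.63 to 1.07, on 6) were lowest among members with at least 50 UMIs in the Loaded section.

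Between the bone spots of the 2 sections, members were higher in the Loaded section as a whole, but by unequal amounts along the pathway. Scaled by size factors made from bone spots only, the summed level was 23.5 in Loaded and 16.1 in Control bone, a log2 ratio of +0.55 (0.47 to 0.63). The 4 blocks were at 24.4, 19.5, 23.4 and 23.7 in Loaded bone and at 13.6, 20.5, 15.4 and 17.5 in Control bone. The second Control block overlapped the Loaded range, and the first Control block, the lowest, had a muscle share of 28.3%. Without *Pdia3* and *Sec11c* the ratio was 0.34. Of 44 members with at least 10 UMIs, 15 were higher (26.4% of all genes) and 5 lower (24.6%), and the median was 0.23 against 0.02 over all genes. With 50 UMIs or more, 12 of 30 were higher (21.5% of all genes) and 2 lower (23.9%). The blocks did not overlap for 4 members, *Copz1*, *Pdia4*, *Sec11a* and *Ssr1*, all higher in Loaded bone (3.34% of all genes), and 0 members had all blocks lower (2.23%). In the other spots of the same sections, the 48 members had a median ratio of −0.04, against 0.05 over all genes, with 6 higher (21.8% of all genes) and 7 lower (17.2%). Their sum was higher there by 0.09 (0.06 to 0.12). The groups ran from −0.45 for the COPII coat to +0.48 for the disulfide isomerases, with the signal peptidase at +0.44. *Sec11c* was at +0.71 (0.63 to 0.80) and *Pdia3* at +0.47, so these genes were also higher outside Loaded bone.

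Of the 8 groups of members, the disulfide isomerases and the signal peptidase had the highest ratios. The disulfide isomerases were at 6.38 in Loaded and 3.02 in Control bone, a ratio of +1.08 (0.91 to 1.25), and the signal peptidase at 3.95 and 2.06, a ratio of +0.94 (0.73 to 1.15). *Pdia3* rested on 721 UMIs in Loaded and 419 in Control bone and had a ratio of +1.11 (0.93 to 1.29). The disulfide isomerases together held 784 and 465 UMIs, so their ratio was largely that of *Pdia3*. The Loaded blocks of *Pdia3* ran from 5.00 to 6.83 and its Control blocks from 2.22 to 5.61, so they overlapped through 1 Control block. *Sec11c* (+1.18, 0.86 to 1.52, on 221 and 122 UMIs) also overlapped. *Spcs3* was higher by 0.82 (0.45 to 1.19). *Pdia4* was at 0.472 in Loaded and 0.240 in Control bone, higher by 0.98 (0.36 to 1.61), and its blocks did not overlap. All 4 signal peptidase members passed 0.5, among them *Sec11a*, the other catalytic subunit (+0.70, 0.05 to 1.36, blocks not overlapping).

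At the translocon the differences were smaller. The group ratio was +0.28 (−0.01 to 0.57), and *Sec61b* (+0.28) and *Sec62* (+0.23) had intervals that included 0. The TRAP complex was higher by 0.55 (0.29 to 0.80). *Ssr1* led it, at 0.529 in Loaded and 0.266 in Control bone, a ratio of +0.99 (0.41 to 1.59) with blocks that did not overlap, while *Ssr3* had +0.27 (−0.13 to 0.68).

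Beyond the endoplasmic reticulum, ratios within a coat or family lay on both sides of 0. The COPII coat had a ratio of −0.02 (−0.27 to 0.22), with *Sec24c*, which selects cargo, at −0.75 (−1.68 to 0.11) and *Sec31a*, of its outer layer, at −0.32 (−0.87 to 0.23). The COPI coat had +0.35 (0.13 to 0.57). Within it *Copz1*, the ζ subunit, was at 0.684 in Loaded bone (blocks 0.563 to 0.853) and 0.318 in Control bone (blocks 0.285 to 0.341), a ratio of +1.11 (0.58 to 1.64). *Copb2*, the β′ subunit, had −0.40 (−1.12 to 0.30), and *Copa*, the α subunit, +0.22 (−0.23 to 0.68). The p24 receptors were at −0.22 (−0.46 to 0.02), with *Tmed9* at −0.53 (−1.04 to −0.02) and *Tmed4* at −1.76 (−3.08 to −0.62) on 8 and 34 UMIs. The KDEL receptors were higher by 0.71 (0.46 to 0.96), *Kdelr2* by 0.75 (0.48 to 1.02).

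**Figure D3:**
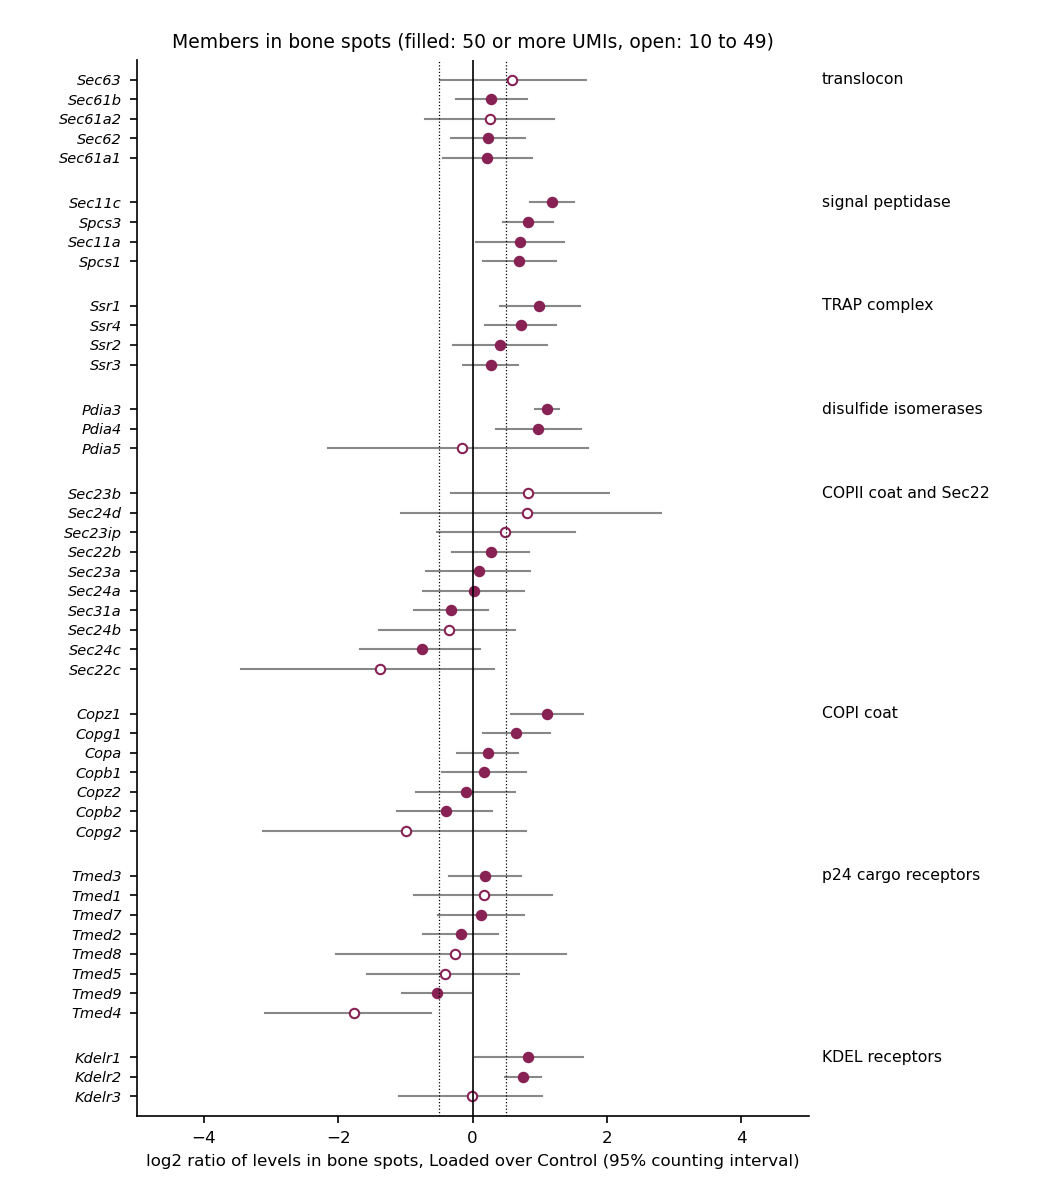
Log2 ratio of levels in bone spots, Loaded over Control (horizontal axis), for the members with at least 10 UMIs, grouped by role, with 95% counting intervals as lines; filled points have 50 or more UMIs and dotted lines mark 0.5. The 4 signal peptidase members lie to the right of 0.5, whereas members of the COPII coat lie on both sides of 0.

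Other cell type genes differed between the same bone spots. *Col1a1* and *Col1a2* together were higher in Loaded bone by 1.55 (24890 and 10678 UMIs), the osteoblast and osteocyte list by 1.87 and the granulocyte list by 1.92 (0.0894% of UMIs in Control and 0.368% in Loaded bone). The plasma cell list was higher by 0.37 and the erythroid list by 0.18. The muscle list had a ratio of −1.06 and the tendon list −1.17. In the bone spots where muscle genes took under 5% of UMIs, 14 in the Control and 25 in the Loaded section, the summed member ratio was 0.48. The part of the marrow genes in the ratios of *Sec11c* and *Pdia3* was not tested. As a description over bone spots, which share size factors, *Sec11c* had a Spearman correlation with granulocyte genes of 0.33 in the Control (131 spots) and 0.35 in the Loaded section (146 spots), and with erythroid genes of 0.43 and 0.35. With plasma cell genes it was 0.02 in the Control and 0.34 in the Loaded section.

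To relate the members to collagen, bone spots were ranked by *Col1a1* plus *Col1a2* UMIs per size factor and divided into quartiles. From the lowest to the highest quartile the collagen level went from 18.0 to 155 in the Control and from 60.0 to 388 in the Loaded section. Collagen also differed by block, from 23.2 in the first to 116 in the fourth Control block. In Loaded bone it ran from 58.7 in the second to 242 in the first block. The quartiles thus also differed in their place in the section, which cannot be told apart from collagen here. The summed member level went 14.2, 14.5, 16.9 and 18.6 over the Control quartiles and 20.5, 23.4, 22.6 and 26.7 over the Loaded quartiles. The log2 ratio of the top to the bottom quartile was 0.39 (0.24 to 0.54) in the Control and 0.39 (0.23 to 0.54) in the Loaded section. Collagen spanned 3.11 and 2.69 on the log2 scale. The spots were sorted by collagen, so its span follows from the ranking and cannot be set against that of the members. Without *Pdia3* and *Sec11c* the member ratios were 0.44 and 0.72. With a split at the median instead, the Loaded ratio was 0.16.

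Of 36 members with at least 10 UMIs in the Control quartiles, 14 were higher in the top quartile (37.1% of all genes) and 3 lower (29.8%), near the background for higher and below it for lower members, with a median of 0.21 against 0.18. In the Loaded quartiles 23 of 35 were higher (30.2% of all genes) and 3 lower (27.8%), with a median of 0.71 against −0.00. With at least 50 UMIs only 7 and 4 members remained, of which 3 were higher (32.7% of all genes) and 0 lower (43.7%) in the Control and 1 higher (24.3%) and 1 lower (34.6%) in the Loaded section. With library totals the Control split was 21 higher (51.2% of all genes) and 2 lower (21%), with the median of all genes at 0.60. Along the same ranking muscle genes went from 28.8% to 5.13% of UMIs in the Control and from 10.6% to 5.76% in the Loaded section, and granulocyte genes from 0.620% to 0.213% in the Loaded section. Plasma cell genes went from 0.234% to 0.0712% and erythroid genes from 4.98% to 1.73% in the Loaded section. In the Control section plasma cell genes went from 0.0395% to 0.0569% and erythroid genes from 1.80% to 2.08%. Their part in the member ratios was not tested.

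**Figure D4:**
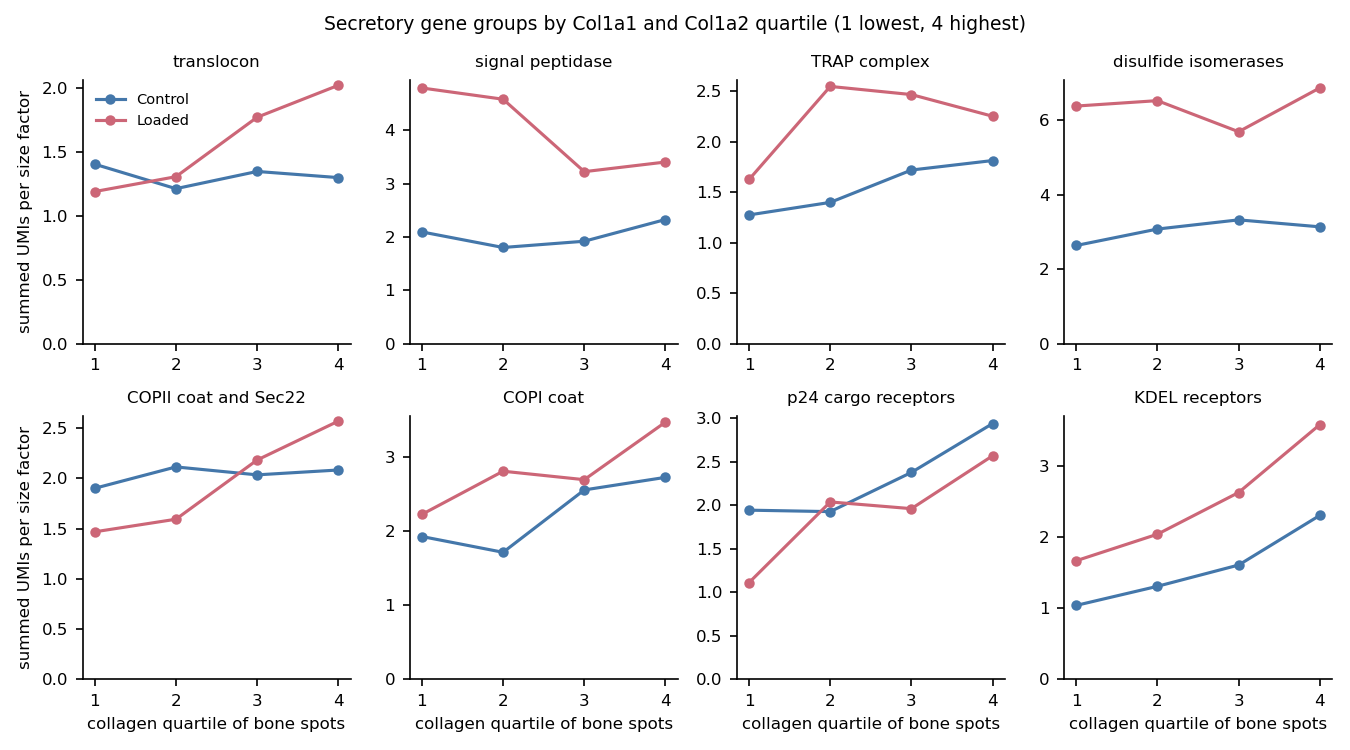
Level (summed UMIs per size factor, vertical axes, from 0) of 8 groups of secretory genes in bone spots ranked into 4 quartiles by *Col1a1* and *Col1a2* (horizontal axes, 1 lowest), in the Control (blue) and Loaded (red) section. The KDEL receptors go up at each step in both sections, from 1.04 to 2.30 in the Control and from 1.67 to 3.58 in the Loaded section, whereas the signal peptidase in the Loaded section goes from 4.80 to 3.41.

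The KDEL receptors, the p24 receptors and the COPI coat had ratios with intervals above 0 in both sections. The KDEL receptors were higher in the top quartile by 1.15 (0.64 to 1.68) in the Control and 1.10 (0.59 to 1.65) in the Loaded section. *Kdelr2* had 42 UMIs in the bottom and 70 in the top Control quartile, a ratio of +0.92 (0.35 to 1.51), and 33 and 103 in the Loaded quartiles, a ratio of +1.18 (0.61 to 1.80). *Kdelr3* had 1 and 13 UMIs in the Control quartiles. In the Loaded quartiles it had 0 and 11. With the empty quartile set to 3 counts the top quartile was 2.67-fold higher, and the lower limit of the interval was 0.87 on the log2 scale. The p24 receptors were higher by 0.60 (0.19 to 1.01) and 1.21 (0.58 to 1.88), and the COPI coat by 0.50 (0.09 to 0.92) and 0.64 (0.17 to 1.13). The median p24 member with at least 10 UMIs was at −0.04 in the Control section, with 3 of 7 higher (37.1% of all genes) and 1 lower (29.8%). In the Loaded section it was at 1.40, with 4 of 4 higher (30.2%). The COPI value in the Control section became −1.59 where muscle genes took under 5% of UMIs.

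The COPII coat had ratios of 0.13 (−0.32 to 0.58) in the Control and 0.81 (0.24 to 1.40) in the Loaded section, and the translocon −0.11 (−0.66 to 0.43) and 0.76 (0.13 to 1.43). The difference between the sections was not tested. The TRAP complex had 0.51 (−0.00 to 1.03) and 0.47 (−0.09 to 1.05). The disulfide isomerases had 0.25 (−0.12 to 0.62) and 0.11 (−0.19 to 0.40), with *Pdia3* at 0.12 (−0.27 to 0.51) and −0.00 (−0.31 to 0.31). Without the fourth block these became 0.69 and 0.59, and without single other blocks they lay at or below 0.31. The signal peptidase had 0.15 (−0.27 to 0.58) and −0.49 (−0.87 to −0.12). *Sec11c* had 66 UMIs in the bottom and 44 in the top Loaded quartile, a ratio of −1.04 (−1.63 to −0.47), and 30 and 35 in the Control quartiles, a ratio of +0.40 (−0.34 to 1.16).

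Spot by spot, members and collagen were loosely related. In bone spots, Pearson's r was 0.36 and Spearman's rho 0.38 in the Control section (131 spots), and 0.18 and 0.30 in the Loaded section (146 spots). In Control bone the rho of single groups ran from −0.03 for the translocon to 0.36 for the KDEL receptors. In Loaded bone it ran from −0.17 for the signal peptidase to 0.29 for the KDEL receptors. In the other spots the rho of all members was 0.36 and 0.31, and the groups were again unlike. They ran from −0.15 for the translocon to 0.44 for the disulfide isomerases in the Control section. In the Loaded section they ran from −0.08 for the p24 receptors to 0.34 for the disulfide isomerases. Members also went down with the muscle share, in bone (rho −0.36 and −0.35) and in the other spots (−0.61 and −0.62). In the other spots both members (−0.54 and −0.45) and collagen (−0.70 and −0.31) went down with the UMIs of a spot. In Control bone both also went down with them, members at a rho of −0.26 and collagen at −0.27. The Loaded bone values were 0.10 and 0.14. Both quantities of a spot share its size factor, so these are descriptions without a test.

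**Figure D5:**
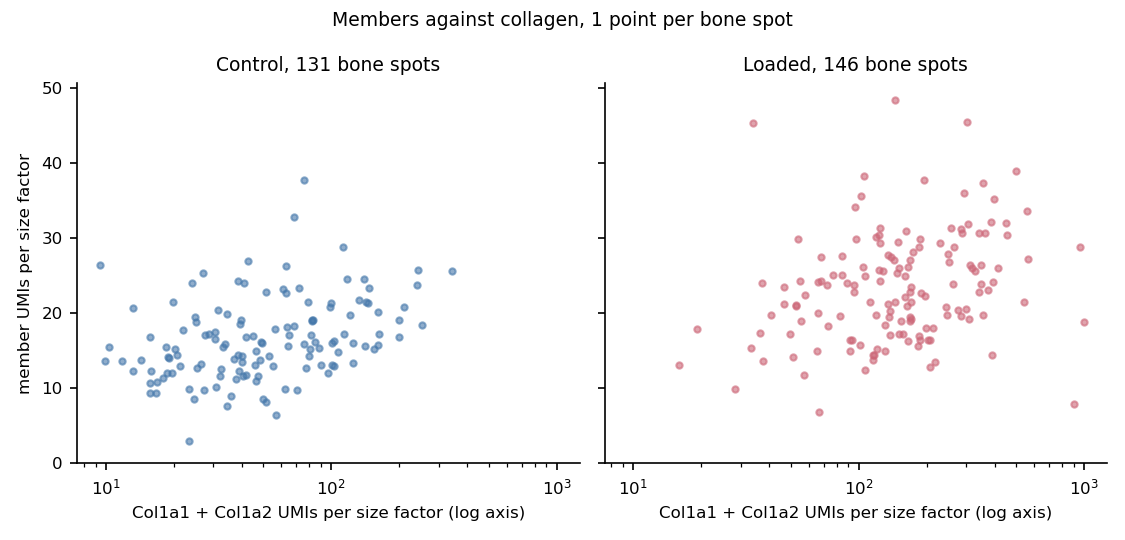
Summed member UMIs per size factor (vertical axes, from 0) against *Col1a1* plus *Col1a2* UMIs per size factor (horizontal log axes) for 131 Control and 146 Loaded bone spots, 1 point per spot. Loaded spots lie further to the right and higher, and within each section the members go up loosely with collagen (Spearman's rho 0.38 and 0.30).

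Genes that work with the members were taken as fixed lists. The collagen folding list (prolyl and lysyl hydroxylases, *Serpinh1* and other partners) was higher in bone than elsewhere by 0.62 in the Control and 0.97 in the Loaded section, with 9 of 15 and 10 of 15 genes past 0.5 (26% and 27.6% of all genes). Between the sections its ratio was 0.16 (0.02 to 0.30), with 4 of 15 higher and 1 lower. That share of higher genes was near the 26.4% of all genes that were higher in Loaded bone, where 24.6% were lower, and the counts of the lists that follow read against the same shares. It had the highest ratio of top to bottom collagen quartile of these pathway lists, 1.53 and 1.37. *Serpinh1*, the collagen chaperone HSP47, had 32 and 138 UMIs in the bottom and top Control quartiles and 15 and 132 in the Loaded quartiles.

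Lumenal chaperones were higher in Loaded bone by 0.54 (0.43 to 0.65), with 11 of 18 genes past 0.5 and none below. *Manf* (+1.26) and *Sdf2l1* (+1.15) were highest, both induced by stress of the endoplasmic reticulum, and *P4hb*, which serves both disulfide exchange and prolyl hydroxylation, was at −0.48. Along collagen this list had ratios of 1.00 in the Control and 0.87 in the Loaded section. *Hspa5*, the chaperone BiP that carries the KDEL signal, had 44 and 80 UMIs in the bottom and top Control quartiles and 35 and 117 in the Loaded quartiles. The unfolded protein response list was higher in Loaded bone by 0.37 (0.23 to 0.51), with 7 of 16 entries higher and 2 lower. *Creb3l1*, a membrane-bound transcription factor of osteoblasts, had 19 UMIs in Control and 68 in Loaded bone, a ratio of +2.17. *Ddit3*, an effector of prolonged stress that the files hold under 2 identifiers, had 58 and 45 over both, a ratio of −0.04. The 2 entries differed in direction: 1 had 40 UMIs in Control and 17 in Loaded bone, a ratio of −0.91 (−1.82 to −0.06), and the other was higher in Loaded bone.

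The oligosaccharyltransferase, which adds N-glycans, was higher in Loaded bone by 0.39 (0.22 to 0.55), led by *Ost4* at +1.41 (68 and 144 UMIs), with 2 of 11 genes higher and 1 lower, both under the shares of all genes. COPI assembly genes had a ratio of 0.23 (0.02 to 0.44), with 1 of 7 higher. Signal recognition genes had −0.11 (−0.32 to 0.10), genes of COPII assembly and large cargo −0.09 (−0.30 to 0.12), and SNAREs and Golgi structure genes −0.25 (−0.50 to 0.01), with 1 of 11 higher and 5 lower. *Sar1b*, the GTPase that starts the COPII coat, had 123 UMIs in Control and 50 in Loaded bone, a ratio of −0.97, and *Preb*, its exchange factor, 45 and 76, a ratio of +1.08. *Sar1b* also had 84 UMIs in the bottom and 7 in the top Control collagen quartile, where muscle genes went from 28.8% to 5.13%.

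Because these genes act in one pathway, their promoters were searched on both strands for the elements known from the unfolded protein response. Sequences from 250 bases before to 50 after the start were taken from RefSeq (GRCm38.p6) and held 40 of the 48 members. The motif TGACGTGG was found for 5 of the 40 (*Copb1*, *Copb2*, *Kdelr3*, *Sec23a* and *Sec24d*), against 0.714% of all 27025 symbols, and for 5 of 85 genes on the lists above. CCAAT followed after 9 bases by CCACG, which begins the reverse complement of the first motif, was found for 0 of the 40 members and for 0.137% of all symbols. Of the 85 genes on the lists above, 8 held it: *Calr*, *Canx*, *Creld2*, *Dnajc3*, *Ero1b*, *Hsp90b1*, *Hspa5* and *Syvn1*. ATTGG followed after 1 base by CCACG was found for 0 of the 40 members, 0.0444% of all symbols and 3 of the 85 list genes, *Dnajb11*, *Herpud1* and *Krtcap2*. The motifs were chosen after the values were seen, and a match is a description of letters, not a binding site. The 4 members with the first motif before the RefSeq start, or for *Copb2* ending on it, are shown with it in capitals, as written or as its reverse complement. Starts in other annotations can differ. In the GENCODE annotation the genes start at 123267455 (*Sec24d*), 114254711 (*Copb1*, minus strand) and 98563721 (*Copb2*), so there the motif lies inside the gene. Only for *Kdelr3*, which starts at 79516411, does it lie before the start in both. The stretches are chr3:123267448-123267477 (plus strand, *Sec24d*), chr7:114254701-114254730 (minus, *Copb1*), chr9:98563702-98563731 (plus, *Copb2*) and chr15:79516356-79516385 (plus, *Kdelr3*).
Sec24d: cacgcgcgcgcgcccgggcgccTGACGTGG
Copb1: ttgctggtctccccgcccccttCCACGTCA
Copb2: cgagagtcgcttcccggaagttCCACGTCA
Kdelr3: tgtcccgcgcctggccgccccgCCACGTCA
Of these, *Copb2* (−0.40, −1.12 to 0.30) and *Copb1* (+0.17, −0.46 to 0.79) had intervals that included 0 between Loaded and Control bone. *Sec24d* (12 bone UMIs over both sections) and *Kdelr3* (34) were too sparse to place.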

How the data were processed

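Visium FFPE sections of 2 femurs (1 Control, 1 Loaded) were analysed. The authors made the deposited counts of UMIs per probe-targeted gene and spot with Space Ranger 2.0.0 (file header) on mm10, and per the labels used R 4.3.1 and Seurat downstream; the counts are raw. Bone spots came from the study's barcode lists. Spots with under 500 UMIs or 250 genes were left out (64 Control, 5 Loaded, 0 bone spots). Size factors were computed with scran 1.30.0 in R 4.3.3, over all spots with clusters for bone against other spots, and over bone spots for the other comparisons. Level ratios, intervals, blocks and collagen quartiles were computed in Python 3.11.15 with scipy 1.17.1. The ratio and its interval were tested on simulated sums of whole regions, scaled by library totals and with counting error only. Blocks, the ranking into quartiles, size factors and spread between spots were not part of that simulation. With 1 section per group, and spots that are no replicates, no test was made and n is 1. Genes with at least 10 UMIs were counted as higher or lower past 0.5 on the log2 scale. A count of 0 was set to 3 to give a ratio.

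The members, the lists of other genes and the rules for naming genes were chosen with earlier results of these data known. In each comparison, the 4 highest and 4 lowest members with at least 50 UMIs were named, with the member of most UMIs in each group and *Pdia3*, which the study names, and from each further list up to 2 genes at either end. *Sec11a*, *Copb1*, *Sec22b*, *Sec24d* and *Tmed3* are also named where a count or the promoter search turned on them, after their values were seen. Alternatives were library totals, totals without muscle and collagen genes, TMM factors (edgeR 4.0.16), other size factors, spot filters, weights, muscle limits, collagen splits, and each block left out.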

Additional observations from a re-analysis of the deposited data

Results flagged for a closer look

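The signal peptidase genes had a bone to other ratio of −0.39 on the log2 scale in the Control section and +0.20 in the Loaded section, with intervals on opposite sides of 0. *Pdia3* did likewise, with −0.16 and +0.58. Both pairs were picked out because the sections pointed in opposite directions; the difference itself was not tested, since each group is 1 section. The opposite directions held against all other spots together only. Against other spots with a muscle share below 10% all 4 ratios were negative (signal peptidase −1.34 and −0.53, *Pdia3* −1.44 and −0.25), and against those of at least 10% all were positive (0.17 and 0.99, 0.84 and 1.56). The other spots of the 2 sections also differed, with the signal peptidase higher by 0.44 and *Pdia3* by 0.47 in the Loaded section.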

How the results depend on the processing

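Each group is 1 section, so depth (14 Control and 25 Loaded bone spots at a muscle share under 5%, and few UMIs for single members) and the choice of tissue limit every ratio, and none has a replicate check. No paired analysis was possible because each group held 1 section. The summed ratio of bone to other spots in the Control section (−0.04) was 0.51 with library totals, 0.29 with totals without muscle and collagen genes, −0.32 with equal weight for every spot, −0.30 where muscle genes took under 5% of UMIs, 0.19 and −0.55 against other spots with a muscle share of at least and below 10%, and 0.041 without *Pdia3* and *Sec11c*. With library totals 23 members were higher and 2 lower. The Loaded ratio (0.52) was under the same alternatives 0.72, 0.64, 0.31, 0.15, 0.93, 0.057 and 0.59, and 0.36 with TMM factors. Loaded over Control bone (0.55) was 0.67 with library totals, 0.65 with size factors over all spots and 0.34 without *Pdia3* and *Sec11c*, and at least 50 UMIs left 2 members lower. The Control collagen ratio (0.39) was 0.81 with library totals and 0.20 with TMM factors, with 3 members higher and 0 lower at 50 UMIs and 6 lower at 1 UMI. The Loaded one (0.39) was 0.14 under a 5% muscle share, 0.16 split at the median and 0.72 without *Pdia3* and *Sec11c*, with 1 higher and 1 lower at 50 UMIs and 7 lower at 1 UMI. Leaving out each block gave −0.16 to 0.11 (Control bone to other), 0.49 to 0.59 (Loaded), 0.45 to 0.65 (Loaded over Control) and 0.35 to 0.50 and 0.31 to 0.53 (collagen). The sums without *Pdia3* and *Sec11c* were chosen after seeing the data.

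Of 1718 values of role groups and single members under the alternatives, 1498 stayed within the counting interval of the reported value, 209 moved outside it and 11 that had passed 0.5 changed sign. In Control bone under a 5% muscle share these were *Sec23a* (0.40) and *Sec31b* (1.46). Against muscle-rich spots it was *Sec11c* (0.35). Against muscle-poor spots they were the KDEL receptors (−0.084), *Kdelr2* (−0.11) and *Sec23a* (0.83). In the Loaded section they were *Pdia3* (−0.038) and *Spcs3* (−0.10) under 5%, and the disulfide isomerases (−0.19) and *Pdia3* (−0.25) against muscle-poor spots. Along collagen it was the Control COPI coat (−1.59). The cause was not tested.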
